A study of Arabidopsis thaliana with 6 samples.

Results

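Abscisic acid (ABA) and drought response genes were followed in seedlings of the nsra/b double mutant and of Col-0. The set comprised 7 genes of the 44200 features in the count table: RAB18 (AT5G66400), LTP3 (AT5G59320), LTP4 (AT5G59310), RD29A (AT5G52310), RD29B (AT5G52300), HAI1 (AT5G59220) and NCED3 (AT3G14440). RAB18, LTP3 and LTP4 were chosen by their higher counts in nsra/b in this same comparison, so their values are a description and carry no test. The other 4 genes stand for steps of the same pathway and were tested, although they too were chosen with earlier results of these data known. All 7 passed the filter on low counts, as did 21606 of the 44200 features.

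The study asked how NSRs, nuclear speckle RNA binding proteins that act on alternative splicing, shape the transcriptome. The nsra/b plants carried T-DNA insertions, from the SALK and SAIL collections, in NSRa and in NSRb, with a single insertion allele for each gene, and shared the Columbia background with the wild type. Col-0 was the wild type. Both genotypes were whole plantlets on half-strength MS that had been moved at 14 days to mock medium, without auxin, for 24 h, and were collected at 15 days (the methods of the paper give a younger age at transfer). Each genotype had 3 polyadenylated RNA libraries, which the methods call biological replicates.

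Total counts per library ran from 25936176 to 30758283 in nsra/b and from 27152846 to 32578330 in Col-0. Between libraries of a genotype, chi-square per degree of freedom was 1.36 to 1.90, above counting noise alone, so all 6 were kept as separate samples. Beyond counting noise the libraries varied little, with a common coefficient of variation of 0.0203 in edgeR. The p-values below are measured against this small spread. Whether plantlets of a genotype were grown or pooled together is not given in the sources used here. How far this spread covers variation between independently grown plants is therefore not known. The sources used here do not pair NSRa and NSRb with gene identifiers, so the genotype labels were not checked on the mutated genes. Levels are given as CPM, the count relative to its TMM-scaled library size. Leaf and root hair markers were both present (summed over 3 genes each, 14700 to 15280 CPM and 11.9 to 13.4 CPM in nsra/b, against 15090 to 16050 CPM and 11.03 to 11.96 CPM in Col-0). The seed storage genes CRA1, CRU3, SESA1 and OLEO1 had at most 3 counts in any library.

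ABA is made from carotenoids, with the NCED dioxygenases catalysing the step that usually limits its rate. The hormone binds PYR/PYL receptors, which then inhibit clade A PP2C phosphatases and so free SnRK2 kinases to activate bZIP factors of the ABF family. ABFs bind ABA-responsive elements (ABREs) in promoters of genes such as RD29B and RAB18, whereas DREB and CBF factors bind dehydration-responsive elements (DREs), as in the RD29A promoter. Several PP2C genes are themselves induced by ABA, which forms a negative feedback.

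All 7 genes were higher in nsra/b, from 1.26-fold for RD29A to 1.88-fold for RD29B, and in none of them did the values of the genotypes overlap. For RAB18, LTP3 and LTP4 the direction was set by the choice, so only the other 4 can be set beside all features. Values of all 3 nsra/b libraries above all 3 Col-0 libraries were found in these 4 and in 15.9% of all features tested. Of the 4 genes not picked for their rise, all 4 were called higher at an adjusted p-value under 0.01, against 5.28% of all features tested. Together the 7 genes took 0.0454%, 0.0471% and 0.0438% of the counts in the nsra/b libraries and 0.0265%, 0.0286% and 0.0274% in the Col-0 libraries. In bulk seedlings, more RNA per cell and more cells that express a gene cannot be told apart.

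**Figure D1:**
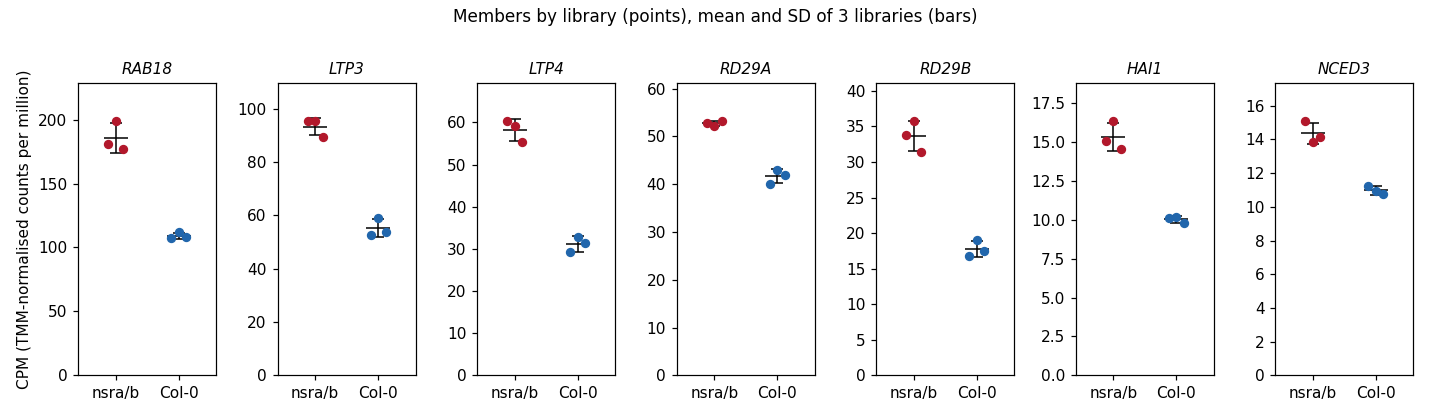
CPM of the 7 genes in each library, with nsra/b left of Col-0 in each panel; points are libraries, and bars give the mean and SD of 3 libraries. In every panel the 3 nsra/b points lie above the 3 Col-0 points, with RAB18 at 177 to 199 CPM in nsra/b and 107 to 112 CPM in Col-0.

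NCED3, the drought-inducible dioxygenase of ABA biosynthesis, had 392, 426 and 424 counts in the nsra/b libraries and 303, 355 and 326 counts in the Col-0 libraries. This came to 14.4 ± 0.633 CPM in nsra/b and 10.98 ± 0.258 CPM in Col-0 (SD, n = 3 each). The lowest nsra/b library stood 1.23-fold above the highest Col-0 library. NCED3 rose by 0.38 on the log2 scale (standard error 0.0632), with an adjusted p = 3.23e-05 in the quasi-likelihood test of edgeR after Benjamini-Hochberg correction. It had the largest adjusted p of the 4 tested genes, and with Bonferroni adjustment that value was 0.0177 and missed the threshold.

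NCED3 lies on the minus strand of chromosome 3 (chr3:4831286-4834015 in TAIR10.1) and is annotated with a single exon. It was the only NCED gene of the list that could be tested, as NCED2, NCED5, NCED6 and NCED9 had at most 8 counts in any library. Of the 5 other biosynthesis genes tested, none was called by edgeR, DESeq2 or limma voom, and 2 had an unadjusted p-value under 0.05 in edgeR. These were ABA1, the zeaxanthin epoxidase, with a log2 fold change of 0.06, and ABA2, a short-chain dehydrogenase, with 0.16. The median log2 fold change of the 5 was 0.05, where the median over all features tested was 0.00. A count of 0 among 5 is near the shares of all features called in edgeR, 5.28% higher and 3.58% lower.

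HAI1 (chr5:23894404-23896939, minus strand) encodes a clade A PP2C phosphatase that is strongly induced by ABA. It had 392, 501 and 437 counts in nsra/b and 272, 331 and 297 counts in Col-0. The means were 15.3 ± 0.896 CPM in nsra/b and 10.03 ± 0.216 CPM in Col-0 (SD, n = 3 each). The second nsra/b library was the highest, at 16.3 CPM, and the 3 Col-0 libraries lay within 9.79 to 10.2 CPM. HAI1 rose by 0.61 on the log2 scale (standard error 0.0648), with an adjusted p = 1.42e-08 in edgeR after Benjamini-Hochberg correction. DESeq2 gave a standard error of 0.0935 for the same gene, and its standard errors were the larger for all 7 genes.

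RD29A and RD29B are drought, salt and cold responsive genes that encode hydrophilic proteins, and they lie in tandem on the plus strand of chromosome 5. RD29B (chr5:21237021-21239531) and RD29A (chr5:21240717-21243644) are 1185 nt apart. Their coding sequences are 77.3% identical over 1741 aligned nt, and the longest exonic run they share exactly is 41 nt. Reads of 100 nt, the length given in the sample records, thus extend past any shared run.

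The upstream sequences of the pair were searched for both kinds of site. Each line gives the 250 nt before the annotated gene start, 5′ to 3′ on the plus strand, read from TAIR10.1 at chr5:21236771-21237020 for RD29B and chr5:21240467-21240716 for RD29A. Capitals mark the ABRE core ACGTG or its reverse complement CACGT, and the DRE core CCGAC.
RD29B: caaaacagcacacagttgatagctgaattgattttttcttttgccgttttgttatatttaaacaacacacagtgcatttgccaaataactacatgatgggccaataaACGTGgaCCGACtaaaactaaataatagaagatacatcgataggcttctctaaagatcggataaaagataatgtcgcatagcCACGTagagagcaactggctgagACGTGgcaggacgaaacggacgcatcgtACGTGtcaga
RD29A: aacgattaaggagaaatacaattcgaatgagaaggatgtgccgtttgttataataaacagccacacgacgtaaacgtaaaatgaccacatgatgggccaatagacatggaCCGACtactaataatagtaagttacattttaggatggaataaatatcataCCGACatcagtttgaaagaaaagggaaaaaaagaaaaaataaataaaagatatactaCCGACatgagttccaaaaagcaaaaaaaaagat

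RD29B has 4 ABRE cores in this window, at 139, 57, 34 and 6 nt before the start, and 1 DRE core at 132 nt. RD29A has 3 DRE cores, at 136, 86 and 29 nt, and no match to ACGTG within its window. Sequence outside the windows, also that after the annotated start, was not searched, so an ABRE there would be missed. Over the windows of 27443 protein-coding genes, counted on both strands with overlapping matches merged, 22.9% held at least 1 ABRE core and 4.98% at least 2, whereas 12% held a DRE core. A match is a description of the letters and was not tested as a binding site.

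RD29B was the gene with the larger change of the pair. It had 878, 1097 and 944 counts in nsra/b and 453, 618 and 532 counts in Col-0, or 33.6 ± 2.12 CPM in nsra/b and 17.8 ± 1.13 CPM in Col-0 (SD, n = 3 each). Every nsra/b library held at least 1.65-fold more than the highest Col-0 library. RD29B rose by 0.91 on the log2 scale (standard error 0.0525, adjusted p = 5.20e-15 from edgeR with Benjamini-Hochberg adjustment), the 89th largest increase among the features tested.

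RD29A had 1374, 1604 and 1594 counts in nsra/b and 1080, 1397 and 1271 counts in Col-0. In nsra/b the 3 libraries were within 52.2 to 53.1 CPM, and in Col-0 within 40.1 to 43.1 CPM. RD29A rose by 0.34 on the log2 scale (standard error 0.0360, adjusted p = 1.68e-08 from edgeR with Benjamini-Hochberg adjustment). RD29A is also a target of the cold-responsive CBF factors. Its rise was the smallest of the 7 genes.

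The difference between the RD29 genes can be read within each library, free of scaling. The count of RD29B over that of RD29A was 0.639, 0.684 and 0.592 in nsra/b and 0.419, 0.442 and 0.419 in Col-0. The means were 0.638 ± 0.0459 in nsra/b and 0.427 ± 0.0135 in Col-0 (SD, n = 3 each), and the genotypes did not overlap. An exact two-sided permutation test on the log ratio gave p = 0.1, the smallest value that 3 libraries against 3 allow. This pair was chosen for comparison after its counts had been seen.

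**Figure D2:**
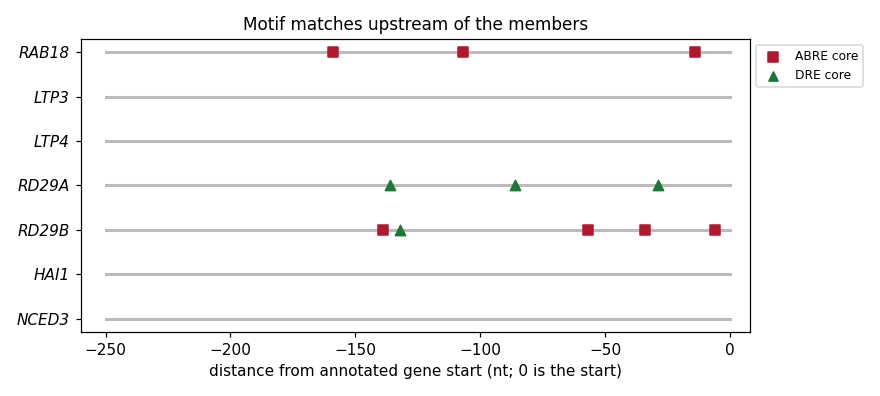
Matches to the ABRE core (squares) and the DRE core (triangles) in the 250 nt before the annotated start of each of the 7 genes; the horizontal axis is the distance from that start in nt. RAB18 has 3 and RD29B 4 ABRE cores, RD29A has 3 DRE cores, and LTP3, LTP4, HAI1 and NCED3 have no match to either.

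RAB18 encodes a dehydrin, a hydrophilic protein that accumulates under water deficit and ABA, also in guard cells. It had the highest level of the 7 genes. It was counted 4697, 6100 and 5319 times in nsra/b and 2889, 3628 and 3282 times in Col-0, which is 185.5 ± 11.4 CPM in nsra/b and 109.1 ± 2.38 CPM in Col-0 (SD, n = 3 each). The nsra/b libraries spread more, with a coefficient of variation of 6.17% against 2.18% in Col-0, and the second one stood highest at 199 CPM. The log2 fold change was 0.77 (standard error 0.0325), or 1.70-fold, the 142nd from the top among the features tested.

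RAB18 lies on the minus strand (chr5:26518277-26519447), and its 5′ end overlaps the divergent gene AT5G66410 on the other strand. AT5G66410, annotated as a PLP3B-like protein with a thioredoxin domain, had 503, 527 and 506 counts in nsra/b and 484, 543 and 551 counts in Col-0. Its log2 fold change was 0.01, and it was not called (adjusted p = 0.939 from edgeR with Benjamini-Hochberg adjustment). The counting was strand specific, so reads of this pair are separated by strand.

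The 3 ABRE cores before RAB18 lie in an exon of AT5G66410, and each is shown with 10 nt on either side, 5′ to 3′ on the strand of RAB18, at chr5:26519596-26519620, chr5:26519544-26519568 and chr5:26519451-26519475. Capitals mark ACGTG or its reverse complement CACGT. The sites stand 159, 107 and 14 nt before the start of RAB18.
Site 1: acgacgatgtACGTGtgtatgaaaa
Site 2: gaggagcattACGTGtcctgttagc
Site 3: ttgatatgaaCACGTacttggtatc

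LTP3 and LTP4 encode lipid transfer proteins, small secreted proteins of the epidermis and cell wall that bind lipids. They are close copies placed head to head on chromosome 5, LTP4 on the minus strand (chr5:23924990-23925957) and LTP3 on the plus strand (chr5:23928954-23929816), 2996 nt apart. Their coding sequences are 86.7% identical over 339 aligned nt. The longest exonic run that they share exactly is 44 nt, shorter than a read, but with 1 alignment kept per read some reads may still have been placed on the wrong copy. The counts of each are therefore less certain than their sum.

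LTP3 had 2478, 2927 and 2685 counts in nsra/b and 1420, 1915 and 1636 counts in Col-0. The means were 93.3 ± 3.34 CPM in nsra/b and 55.2 ± 3.33 CPM in Col-0 (SD, n = 3 each), a log2 fold change of 0.75 (standard error 0.0362). The spread was nearly the same in both genotypes.

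LTP4 had 1567, 1820 and 1658 counts in nsra/b and 787, 1065 and 953 counts in Col-0. The means were 58.3 ± 2.64 CPM in nsra/b and 31.2 ± 1.81 CPM in Col-0 (SD, n = 3 each), a log2 fold change of 0.90 (standard error 0.0415). The ratio of LTP4 to LTP3 counts was 0.632, 0.622 and 0.618 in nsra/b and 0.554, 0.556 and 0.583 in Col-0. LTP4 was thus the less abundant copy in all 6 libraries, and its share was higher in each nsra/b library than in any Col-0 library.

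The genes near the pair were not called. AT5G59330, a further lipid transfer protein-like gene 1497 nt beyond LTP3, had 0, 3 and 3 counts in nsra/b and 6, 1 and 4 counts in Col-0, below the filter, and was not tested. UBC7 (AT5G59300), a ubiquitin conjugating enzyme gene near LTP4, had a log2 fold change of 0.07 (adjusted p = 0.382 from edgeR with Benjamini-Hochberg adjustment).

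**Figure D3:**
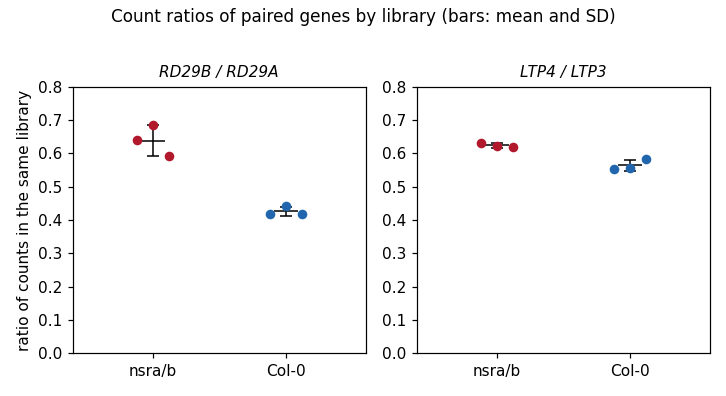
Count ratios of the neighbouring genes RD29B over RD29A and LTP4 over LTP3 in each library, with nsra/b left of Col-0; points are libraries and bars give the mean and SD of 3. The RD29 ratio is 0.592 to 0.684 in nsra/b and 0.419 to 0.442 in Col-0, and the LTP ratio 0.618 to 0.632 in nsra/b and 0.554 to 0.583 in Col-0.

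Per kb of annotated exon, the levels of the 7 genes kept the same order in both genotypes. RAB18 stood at 170.3 CPM per kb in nsra/b and 100.2 CPM per kb in Col-0. LTP3 followed with 121 CPM per kb in nsra/b and 71.8 CPM per kb in Col-0, and LTP4 with 70.2 CPM per kb in nsra/b and 37.5 CPM per kb in Col-0. These 3 genes, the most abundant, were those picked for their rise.

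RD29A had 19.8 CPM per kb in nsra/b and 15.7 CPM per kb in Col-0, and RD29B had 15.5 CPM per kb in nsra/b and 8.20 CPM per kb in Col-0. HAI1 had 7.35 CPM per kb in nsra/b and 4.81 CPM per kb in Col-0. NCED3 was the lowest, with 5.26 CPM per kb in nsra/b and 4.02 CPM per kb in Col-0. In Col-0 the step between HAI1 and NCED3 was the narrowest, and no neighbours in the order overlapped over the libraries of a genotype.

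Other genes of the pathway, together with relatives of RAB18 and of the LTP pair, were taken as 9 lists of 88 genes, of which 68 could be tested. Of these 68, 19 were called higher in nsra/b (27.9%, against 5.28% of all features tested) and 1 lower (1.47%, against 3.58%). Their median log2 fold change was 0.08, where all features tested had 0.00. Values of all nsra/b libraries lay above all Col-0 libraries in 35 of the 68 and below them in 4, against 15.9% and 14.1% of all features tested. The lists were chosen with earlier results of these data known, so the shares here and in the list paragraphs below are a description and not a test.

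**Figure D4:**
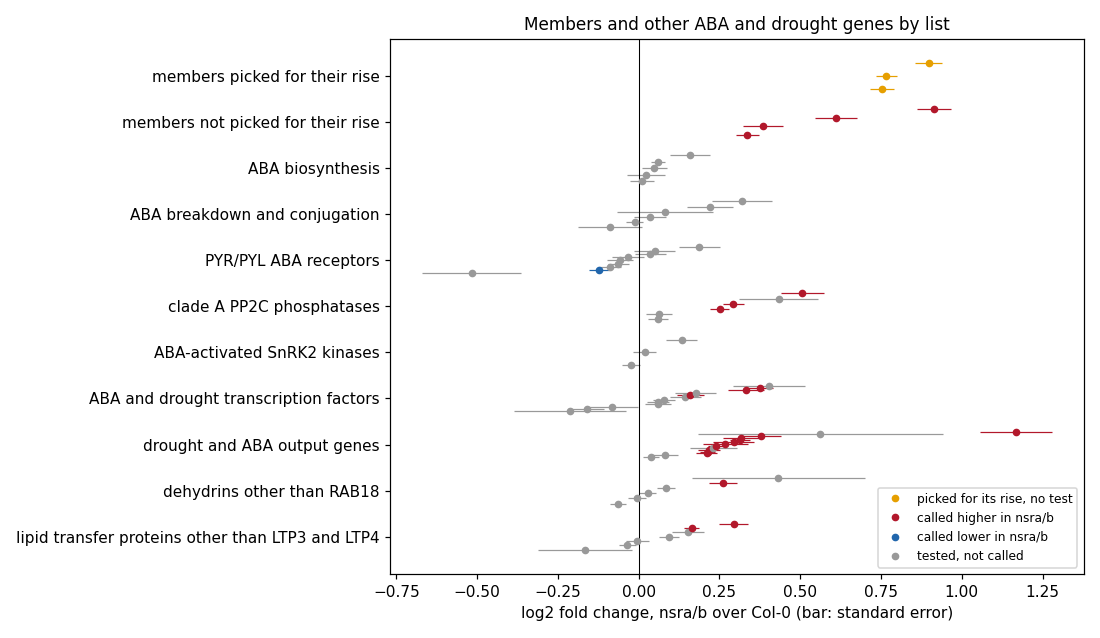
Log2 fold changes, nsra/b over Col-0, of the 7 genes and of the 68 tested genes of 9 ABA and drought lists; each point is a gene, horizontal bars are standard errors, and colours give the call at an adjusted p-value under 0.01. Genes called higher are 10 of 14 tested output genes, 3 of 6 PP2C phosphatases, 2 of 7 lipid transfer proteins, 3 of 12 transcription factors and 1 of 6 dehydrins, and the only list gene called lower is the receptor gene PYL4.

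Among the clade A PP2C phosphatases, the family of HAI1, 3 of the 6 other genes tested were called higher and 0 lower. The shares over all features tested were 5.28% and 3.58%. ABI2 changed by 0.51 on the log2 scale, with 18.8 ± 1.76 CPM in nsra/b and 13.2 ± 0.946 CPM in Col-0 (SD, n = 3 each). AHG3 changed by 0.29 and ABI1 by 0.25, and the adjusted p-values of the 3 genes ran from 3.55e-08 to 7.01e-07 in edgeR with Benjamini-Hochberg adjustment. HAI2 had a log2 fold change of 0.43 but missed the threshold (adjusted p = 0.0117 in edgeR). HAB1 and HAB2 both had 0.06 and were not called, and AHG1 and HAI3 had too few counts.

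The PYR/PYL receptors inhibit these phosphatases when ABA is bound. Of 9 tested, 0 were called higher by edgeR, DESeq2 or limma voom, and 4 had an unadjusted p-value under 0.05 in edgeR, in either direction. With 1 called lower, the numbers called are too small to be told apart from the shares of all features tested, 5.28% higher and 3.58% lower. The 1 was PYL4, with 2097, 2679 and 2535 counts in nsra/b and 2517, 2890 and 2816 counts in Col-0. This was a log2 fold change of -0.12 (standard error 0.0316), with an adjusted p = 0.00599 in edgeR after Benjamini-Hochberg correction. The call was lost with DESeq2 (adjusted p = 0.0288). It was also lost when Col-0 replicate 1, Col-0 replicate 3, nsra/b replicate 1 or nsra/b replicate 3 was left out, with edgeR adjusted p-values of 0.0450, 0.0364, 0.0381 and 0.0143. PYL2 had the largest negative value, -0.52, on 40 to 56 counts in nsra/b and 69 to 80 counts in Col-0, and was not called (adjusted p = 0.0195 in edgeR). PYL9 had the largest positive value, 0.19, on 373, 511 and 438 counts in nsra/b and 365, 431 and 403 counts in Col-0, and was not called either (adjusted p = 0.0389 in edgeR). The genotypes did not overlap in PYL9 and PYL6, which were higher in nsra/b, nor in PYR1, PYL2 and PYL4, which were lower. Such separation was found in 15.9% (higher) and 14.1% (lower) of all features tested.

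The ABA-activated kinases SNRK2.2, SNRK2.3 and OST1 had log2 fold changes from -0.02 to 0.13. None was called by edgeR, DESeq2 or limma voom, and 1 had an unadjusted p-value under 0.05 in edgeR. The same held for the breakdown and conjugation genes, where 0 of 6 were called by the 3 tools and 2 had an unadjusted p-value under 0.05 in edgeR. Those were CYP707A1 and CYP707A2, which encode ABA 8′-hydroxylases, with log2 fold changes of 0.32 and 0.22. Counts of 0 in lists this short are near the shares of all features called in edgeR, 5.28% higher and 3.58% lower.

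Among ABA and drought transcription factors, 3 of 12 tested were called higher and 0 lower, against 5.28% and 3.58% of all features tested. HB7 and HB12, homeodomain-leucine zipper genes induced by ABA and water deficit, changed by 0.38 and 0.33 on the log2 scale. HB7 had 51.87 ± 2.295 CPM in nsra/b and 39.95 ± 1.85 CPM in Col-0 (SD, n = 3 each). The third was ABF2, an ABRE-binding bZIP factor, with 0.16 (adjusted p = 0.00837 from edgeR with Benjamini-Hochberg adjustment). ABF2 was not called by DESeq2 (adjusted p = 0.101) nor without Col-0 replicates 1, 2 or 3 or nsra/b replicates 1 or 2, each left out in turn (edgeR adjusted p from 0.0210 to 0.0428). NAC019, a drought-induced NAC factor gene, had a larger value than the 3 called genes, 0.40, but missed the threshold (adjusted p = 0.0114 in edgeR), without overlap between genotypes. DREB2A and RD26 had 0.18 and 0.14 and were not called, with edgeR adjusted p-values of 0.0600 and 0.0414. MYB96, known in Arabidopsis as an activator of LTP3, had a log2 fold change of -0.16, also without overlap, and was not called (adjusted p = 0.0277 in edgeR). Of the 12 factors, 5 lay wholly higher and 1 wholly lower in nsra/b, against 15.9% and 14.1% of all features tested.

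The drought and ABA output genes held most of the calls, with 10 of 14 tested higher and 0 lower, and a median log2 fold change of 0.25. All features tested had shares of 5.28% higher and 3.58% lower. LEA4-5, a late embryogenesis abundant protein gene, had the largest change of the 68, 1.17 on the log2 scale (standard error 0.111, adjusted p = 1.46e-09 from edgeR with Benjamini-Hochberg adjustment). It had 147, 176 and 186 counts in nsra/b and 70, 90 and 74 counts in Col-0. This exceeded the change of any of the 7 genes, though on fewer counts.

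RD20, a caleosin gene of lipid droplets, changed by 0.38, AFP3, which encodes a protein that binds ABI5-type factors, by 0.32, and RD22 by 0.24. The proline synthesis gene P5CS1 changed by 0.21, LEA14 by 0.21 and the galactinol synthase genes GOLS1 and GOLS2 by 0.22 and 0.29 on the log2 scale. KIN2 and KIN1, neighbouring copies whose reads may be shared, changed by 0.31 and 0.27. KIN1 (adjusted p = 0.00671 in edgeR) lost its call whichever of the 6 libraries was left out, with edgeR adjusted p-values from 0.0102 to 0.0361. GOLS2 was not called without Col-0 replicate 1 (adjusted p = 0.0120) or nsra/b replicate 2 (adjusted p = 0.0188). DESeq2 called neither, with adjusted p-values of 0.0943 for KIN1 and 0.0192 for GOLS2. ERD1, HIS1-3, AFP1 and EM6 had log2 fold changes of 0.04, 0.08, 0.23 and 0.56 and were not called.

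The relatives of RAB18 and of the LTP pair were described in the same way, against 5.28% of all features tested called higher and 3.58% called lower. Of the 6 other dehydrins tested, 1 rose and 0 fell. This was XERO2, with 904, 1106 and 1008 counts in nsra/b and 736, 956 and 915 counts in Col-0 and a log2 fold change of 0.26 (adjusted p = 4.85e-05 from edgeR with Benjamini-Hochberg adjustment). The abundant dehydrins COR47, ERD14 and HIRD11 had log2 fold changes of -0.00, 0.03 and -0.06. ERD10, with 129 CPM in nsra/b and 121.8 CPM in Col-0 on average, had 0.08 and was not called (adjusted p = 0.0320 in edgeR), though its genotypes did not overlap. Of the 7 other lipid transfer protein genes tested, LTP8 and LTP1 were called higher, by 0.29 and 0.16, and 0 lower. LTP6 and LTP7 had log2 fold changes of 0.15 and 0.09 without overlap between genotypes but missed the threshold, with edgeR adjusted p-values of 0.0303 and 0.0422. Such separation upward, seen also in ERD10, was found in 15.9% of all features tested. LTP2, LTP5 and LTP10 had -0.00, -0.04 and -0.17 and were not called.

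The upstream windows of the called genes were searched in the same way. An ABRE core was found in 10 of the 19 list genes called higher (52.6%) and in 24 of the 48 tested and not called (50.0%). Over all features with a window, 370 of 1099 called higher (33.7%), 183 of 741 called lower (24.7%) and 4889 of 20430 tested (23.9%) held it. AHG3 and AFP3 had the most sites among the 19, with 4 each, and LEA4-5 had 3.

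Markers of cell types in which these genes are known to be active were compared. The guard cell genes FAMA, MYB60 and KAT1 summed to 47.2 to 52.3 CPM in nsra/b and 47.5 to 49.4 CPM in Col-0. None of the 3 was called by edgeR, DESeq2 or limma voom, and 0 had an unadjusted p-value under 0.05 in edgeR. Of the epidermal genes, PDF1 was called lower, with 143.45 ± 4.80 CPM in nsra/b and 175.3 ± 9.25 CPM in Col-0 (SD, n = 3 each) and a log2 fold change of -0.29, while ATML1 and KCS10 had -0.00 and -0.01. The epidermal sum was 520 to 540 CPM in nsra/b and 554 to 575 CPM in Col-0. Of the leaf genes, CAB3 was called lower and CA1 higher in nsra/b, with log2 fold changes of -0.23 and 0.25. Over all features tested, 5.28% were called higher and 3.58% lower, so calls among 3 genes per cell type say little about the number of such cells. The part of these cell types in the changes above was not tested.

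The features whose log2 CPM followed RAB18 most closely over the 6 libraries were listed by Pearson correlation, as a description in which the points share the split between genotypes. AT2G37870, annotated in the bifunctional inhibitor and lipid transfer protein superfamily, came first with r = 0.9995, and it had 352, 469 and 394 counts in nsra/b and 209, 260 and 238 counts in Col-0. HAI1 was the second with r = 0.9981. Then came the extensin gene EXT4 (0.9977), the cinnamyl-alcohol dehydrogenase gene CAD1 (0.9973) and the epithiospecifier gene ESP (0.9971). RD29B ranked 8, LTP3 31 and LTP4 38, whereas RD29A ranked 193 and NCED3 539. As 596 features had r of at least 0.95 over these 6 libraries, such values are common here.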

How the data were processed

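Per the methods, the authors used fastqc for read quality, tophat for alignment (limited to 1 hit for each read) and the summarizeOverlaps function in its stranded Union mode for counting. The features carry Arabidopsis gene identifiers or XLOC locus names, and the annotation used for counting is not given in the sources used here. The genome build is TAIR10 per the labels, and tool versions are not given in the sources used here. The deposited values are raw counts per feature, with no unmatched sample columns. Counts were tested with edgeR 4.0.16 in R 4.3.3 (TMM, filterByExpr with a minimum count of 10 and a minimum total of 15, quasi-likelihood test, genotype as the only factor, Benjamini-Hochberg adjustment over all 21606 features, threshold 0.01). Each standard error was obtained by dividing the size of the log2 fold change by the root of its F statistic. Alternatives were DESeq2 1.42.0, limma voom 3.58.1, other normalizations, no filter, Bonferroni adjustment, a threshold of 0.05, a block for the replicate number, and leaving out single libraries. The scripts were tested on simulated data. Members and lists were chosen with earlier results of these data known. The rule for named genes took all 7 members, every called gene of each list and the 5 features most like RAB18; uncalled genes were added after their values were seen. Positions and sequences come from the RefSeq annotation of TAIR10.1, and all 7 members matched by identifier. Precision is limited by 3 libraries per genotype and, where counts are low, by counting error.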

Additional observations from a re-analysis of the deposited data

How the results depend on the processing

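Of the 14 alternatives, Bonferroni adjustment and the threshold of 0.05 reuse the main fit and its log2 fold changes. The looser threshold cannot lose a call. The log2 fold changes of the 7 members kept their direction under all 14, a direction set by the choice for RAB18, LTP3 and LTP4. With each library left out in turn they ran from 0.71 to 0.80 for RAB18, 0.72 to 0.81 for LTP3, 0.86 to 0.94 for LTP4, 0.31 to 0.36 for RD29A, 0.87 to 0.97 for RD29B, 0.56 to 0.65 for HAI1 and 0.35 to 0.41 for NCED3. RD29A, RD29B and HAI1 stayed past the threshold under all 14, and NCED3 under 13, as Bonferroni adjustment left its log2 fold change of 0.38 uncalled. Of the list genes outside the set, 19 were called higher, against 12 with Bonferroni adjustment, 29 at an adjusted p-value under 0.05, and 16 to 19 with a library left out. The 1 called lower became 0 with DESeq2 or Bonferroni adjustment, 3 at 0.05, and 0 to 2 with a library left out. Over all features, 1140 were called higher and 774 lower, against 632 and 455 with DESeq2, 325 and 169 with Bonferroni adjustment, and 1833 and 1385 at 0.05. With a library left out these counts were 793 to 1109 and 494 to 750, with 494 lower without Col-0 replicate 1 and 497 without Col-0 replicate 2. With the replicate number as a block, 1227 features were called higher and 866 lower, and 20 and 1 of the list genes. The paper, with DESeq2, reports far fewer genes changed between the genotypes in mock seedlings than DESeq2 called here, and many more with auxin than in mock. Its methods give no cutoff for them, and give another age and read length than the sample records. Why the counts differ was not tested. Same-numbered libraries did not deviate together (correlations of -0.0119, 0.0254 and 0.0558), so the numbers were not taken as pairs.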
